A study of Mus musculus with 6 samples.

Results

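Soleus muscle without its nerve, from mice whose labels give a double deletion of Dach2 and Hdac9, was compared with innervated soleus of wild-type (WT) mice. The libraries were chosen by their titles, 2 in each group, which makes 4 of the 6 libraries of the series. All mice were adult and of strain C57BL/6, the genotypes were wild-type and Dach2-/-/Hdac9-/-, and the denervated muscles were taken 3 days after denervation, the loss of the muscle's nerve supply. Dach2 is a transcriptional co-factor, Hdac9 is a class II histone deacetylase, and both are known as co-repressors of muscle genes. The soleus is a hindlimb muscle rich in slow, oxidative fibres, and polyadenylated RNA of the whole muscle was sequenced. The remaining group, denervated soleus of WT mice at the same 3 days (2 libraries), served as the reference for what denervation alone did.

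Genotype and denervation differed together in this comparison and cannot be told apart within it. Innervated knockout muscle was not analysed here. Whether the deletions were whole-body or restricted to a cell type, and whether the libraries of a group came from separate animals, is not given in the sources used here, so the spread behind every p-value is that of these libraries and may be technical. Dach2 (chromosome X, 110411864 to 110949995) stood at 3.85 and 4.29 FPKM (fragments scaled to transcript length and to the size of the library) in the innervated WT pair and at 0.961 and 0.681 in the knockout pair. It was as low, at 0.519 and 0.536 FPKM, in denervated WT libraries. Hdac9 (chromosome 12, 35056361 to 35213754) stood at 4.10 and 3.14 FPKM with the nerve intact (WT), 0.534 and 0.181 in the knockout and 1.83 and 0.285 in denervated WT libraries. A level summed over a gene does not check a deletion of part of it, so the group is called DKO-labelled (double knockout) below.

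When a motor nerve is cut, the electrical activity that it imposes on the muscle fibre ends. Genes that activity holds down along the fibre, among them the acetylcholine receptor subunits, are known to be released from repression, largely through the muscle transcription factor myogenin (Myog). Dach2 and Hdac9 are known to restrain Myog in innervated muscle, and the title of the series also names Gdf5, a ligand of the BMP family, as a member of the same system.

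The 4 libraries held 25529434 to 32380082 fragments, and no library repeated another of its group within counting error. On the first principal component, with 73% of the variance, both innervated libraries lay apart from all 4 denervated ones. On the second, with 13%, denervated WT replicate 2 lay apart at 43.3, the others lying between -27.9 and 8.8. The fibre markers of the labelled tissue were high in innervated muscle (Mb, the oxygen store myoglobin, at 11008 and 12666 FPKM; Myh7, the slow myosin heavy chain, at 1176 and 1700). Acta1, the skeletal muscle actin, was listed at 0 in all 6 libraries, where the fibre genes Ttn and Neb stood between 57 and 241 FPKM, so Acta1 was not used.

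The transcriptome of denervated DKO-labelled soleus differed widely from that of innervated WT soleus. Genes for the fetal acetylcholine receptor, Myog, Myod1, Gdf5 and most ribosomal and proteasome subunits tested were higher, and most of those tested for respiration, fatty acid use and contraction were lower. Of 12247 genes tested, 1859 (15.2%) were called higher and 1984 (16.2%) lower, 31.4% in all, at an edgeR quasi-likelihood adjusted p under 0.05. Of these, 1022 (8.34%) were at least 2-fold higher and 1354 (11.1%) at least 2-fold lower. The counts of every gene list below are to be read beside the shares of 15.2% higher and 16.2% lower. The median log2 fold change of all tested genes was 0.01. Of the calls, 48.4% were higher; with library totals in place of TMM scaling, 3729 genes were higher and 1239 lower, 75.1% of the calls being higher, and the median of all genes was 0.33. The counts changed with every library left out. Both fell in each fit without an innervated WT or DKO-labelled library, which left 1 library in that group, and rose without a denervated WT library. A call lost in such a fit does not show that the change was absent. The counts of calls higher and lower were 1859 and 1984 with all 6 libraries. Without denervated WT replicate 1 or 2 they were 2705 and 2812, and 2713 and 2797. Of the 3843 calls, between 658 and 1973 were kept in the fits without an innervated or DKO-labelled library, and none of the 3843 changed sign in them. Those fits reuse libraries that gave the calls, so the kept signs are no separate support. Of 199 called genes examined singly, 94 kept their call in each of the 17 or 18 alternative analyses that tested them, and 69 lost it only where a library was left out. Where a gene list below has 0 calls in a direction by edgeR, at most 2 members passed an unadjusted p of 0.05 in that direction and DESeq2 called at most 1, except for tendon and cartilage (4 and 3 lower).

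**Figure D1:**
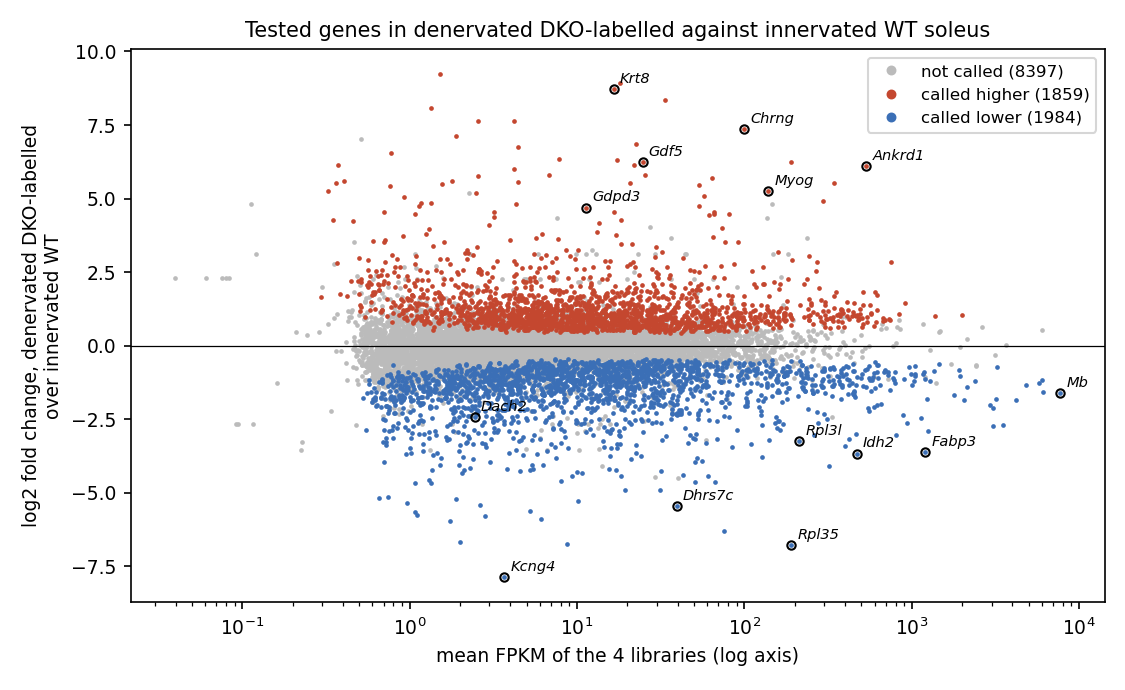
Log2 fold change of the tested genes with a mean FPKM above 0 in the 4 libraries (vertical axis, denervated DKO-labelled over innervated WT) against that mean (horizontal log axis). Red points are the 1859 genes called higher, blue points the 1984 called lower and grey points those not called; the most abundant genes, such as Mb, lie among those called lower.

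Which denervation changes were present in the DKO-labelled muscle was read by setting the WT comparison beside it. In denervated against innervated WT soleus, 28.7% of genes were called, 1759 (14.4%) higher and 1753 (14.3%) lower. Of the 1759 that rose in WT, 1408 (80%) were also called higher in the DKO-labelled libraries, 350 (19.9%) were not called and 1, Itga9, was called lower. Of the 1753 that fell in WT, 1500 (85.6%) were also called lower, 248 (14.1%) were not called and 5 were called higher. Both comparisons share the innervated libraries, so a common deviation of those libraries enters both, and these counts describe presence without measuring agreement. Genes called higher in WT had a median log2 fold change of 1.07 there and 1.01 in the DKO-labelled comparison. Those called lower had medians of -1.21 and -1.23. The 350 genes that were called higher in WT alone had a median of 0.91 in WT and 0.59 in DKO-labelled muscle, and the 248 called lower in WT alone had -1.01 and -0.65. The 446 genes called higher in DKO-labelled muscle alone had 0.83 there and 0.5 in WT, and the 483 called lower there alone had -1.0 and -0.61. Picking genes by a call in 1 comparison alone favours such gaps, so these medians are no separate result. None of the 598 genes called in WT and not in DKO-labelled muscle was called by edgeR in the direct test of the denervated groups. In that test 103 of the 598 had an unadjusted p under 0.05, a larger share than the 6.11% (748 of 12247) of all tested genes. The 598 were picked through a comparison that uses the same denervated WT libraries, so this larger share is not separate support for a difference. The shared counts depended on single libraries: they were 1932 higher and 2091 lower without denervated WT replicate 1, 1354 and 1338 without denervated WT replicate 2, 162 higher and 281 lower without innervated WT replicate 1, 80 and 117 without innervated WT replicate 2, 824 and 969 without DKO-labelled replicate 1, and 516 and 593 without DKO-labelled replicate 2.

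The acetylcholine receptor showed the fetal pattern. All 5 muscle subunits were tested, 4 were called higher and 1 lower, and their median log2 fold change was 3.52. Chrng, the gamma subunit of the fetal receptor, stood at 1.83 and 0.775 FPKM in innervated WT and at 203 and 191 in DKO-labelled libraries, a log2 fold change of 7.36 ± 0.73 (SE; edgeR adjusted p = 0.00206). It was near silent in both innervated libraries, and the groups did not overlap, as for the 36.4% of all tested genes that lay higher without overlap. Chrnd, the delta subunit, stood at 6.44 and 5.40 FPKM in innervated WT and at 114 and 138 in DKO-labelled libraries (4.54 ± 0.28, edgeR adjusted p = 0.000968). Chrna1, the ligand-binding alpha subunit, went from 16.7 and 13.2 to 157 and 182 FPKM (3.52 ± 0.26), and Chrnb1, the beta subunit, from 16.6 and 16.0 to 93.8 and 105 FPKM (2.70 ± 0.18). Chrne, the epsilon subunit that replaces gamma in the adult receptor, went the other way, from 7.44 and 9.70 to 2.43 and 3.97 FPKM (-1.33 ± 0.34, edgeR adjusted p = 0.03). The Chrne call, which was singled out after its values were seen, was lost without any 1 of the 4 libraries and with library totals in place of TMM scaling, up to an adjusted p of 0.172. In denervated WT muscle the log2 fold changes against the same innervated libraries were 6.71 for Chrng, 4.26 for Chrnd, 3.43 for Chrna1, 2.69 for Chrnb1 and -1.30 for Chrne, and no subunit was called between the denervated groups.

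The 250 bases upstream of the start of these genes are shown because 4 of the 5 receptor subunits and Musk rose as Myog did, whose protein belongs to the class of factors that bind the E-box CANNTG (N is any base). Sequences are from RefSeq on build GRCm38.p6, 5′ to 3′ on the strand of the gene, with every CANNTG in capitals; the pattern reads the same on both strands, and CAGCTG is counted within CANNTG. The regions are those of Chrna1 (chr2:73580339-73580588, minus strand), Chrng (chr1:87205561-87205810, plus strand), Chrne (chr11:70619195-70619444, minus strand), Musk (chr4:58285712-58285961, plus strand) and Myog (chr1:134289754-134290003, plus strand). Of 7 genes looked up, 6 were matched.
Chrna1: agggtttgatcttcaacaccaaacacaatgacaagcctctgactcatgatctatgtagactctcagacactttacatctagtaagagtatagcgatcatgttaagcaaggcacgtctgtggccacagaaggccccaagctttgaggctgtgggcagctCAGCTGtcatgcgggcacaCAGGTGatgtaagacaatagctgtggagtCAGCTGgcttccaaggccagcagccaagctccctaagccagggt
Chrng: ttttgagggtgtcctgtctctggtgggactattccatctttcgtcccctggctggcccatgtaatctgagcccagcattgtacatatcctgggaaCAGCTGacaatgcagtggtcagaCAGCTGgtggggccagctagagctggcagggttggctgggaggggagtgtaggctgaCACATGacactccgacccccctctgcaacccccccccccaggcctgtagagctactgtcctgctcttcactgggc
Chrne: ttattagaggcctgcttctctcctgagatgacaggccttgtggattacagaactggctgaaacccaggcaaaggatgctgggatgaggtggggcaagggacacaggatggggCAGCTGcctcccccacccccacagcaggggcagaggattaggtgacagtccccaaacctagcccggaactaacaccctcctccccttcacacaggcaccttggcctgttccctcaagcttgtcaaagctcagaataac
Musk: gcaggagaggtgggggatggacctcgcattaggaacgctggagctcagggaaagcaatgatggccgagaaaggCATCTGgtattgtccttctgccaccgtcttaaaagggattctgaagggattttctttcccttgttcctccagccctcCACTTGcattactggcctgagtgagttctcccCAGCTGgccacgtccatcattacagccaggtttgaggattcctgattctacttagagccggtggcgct
Myog: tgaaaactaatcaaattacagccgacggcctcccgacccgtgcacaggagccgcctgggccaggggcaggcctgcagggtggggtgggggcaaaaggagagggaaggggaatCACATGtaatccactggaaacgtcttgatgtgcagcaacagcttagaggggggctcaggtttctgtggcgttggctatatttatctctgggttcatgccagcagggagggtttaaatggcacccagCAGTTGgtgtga
Chrna1, Chrng and Musk each held 3 CANNTG, as did Chrnb1, which is not printed, Myog held 2 and Chrne 1. CAGCTG was not among those of Chrnb1 and Myog. It lay at -92 and -44 bases from the start in Chrna1, at -155 and -132 in Chrng, at -138 in Chrne and at -68 in Musk. Over all 32851 promoters of the table, windows of the same length held CANNTG in 66.2% and CAGCTG in 13%. Among promoters of genes called higher the shares were 57.5% and 10.9%, of genes called lower 60.5% and 15.1%, and of all tested genes 57.9% and 12.2%. A match to these letters describes the window only.

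Myog, Myod1 and Myf6 rose beside the receptor, while most of the wider list of myogenic regulators was not called. Of 18 myogenic regulators tested, 6 were called higher (Myog, Myod1, Myf6, Id2, Hes6 and Mef2a) and 1, Srf, lower, with a median of 0.21. Myog (chromosome 1, 136186580 to 136189125) stood at 8.02 and 7.32 FPKM in innervated WT and at 212 and 328 in DKO-labelled libraries, 38.4-fold higher (log2 5.26 ± 0.64, edgeR adjusted p = 0.00322). Myod1, which like Myog is a basic helix-loop-helix activator of muscle genes, went from 7.71 and 4.38 to 113 and 120 FPKM (4.43 ± 0.49). Myf6, the member of that family with the highest FPKM in adult innervated muscle here, rose from 60.9 and 48.3 to 374 and 496 FPKM (3.06 ± 0.49, edgeR adjusted p = 0.00696). All DKO-labelled values exceeded all innervated values for these genes, as for 36.4% of all tested genes. Id2, whose protein holds such activators off DNA, rose from 4.62 and 3.69 to 22.6 and 30.6 FPKM (2.67 ± 0.27). Hes6, a basic helix-loop-helix factor of the hairy family, rose from 15.2 and 17.1 to 87.4 and 80.5 FPKM (2.53 ± 0.15) and stood higher still, at 164 and 161, in denervated WT, although the denervated groups were not called apart. Calls of Myf6 and Mef2a were lost without innervated WT replicate 1 or 2 (adjusted p up to 0.0718 and 0.0596), and that of Srf without innervated WT replicate 2 or DKO-labelled replicate 2 (up to 0.0679). The WT log2 fold changes were 5.23 for Myog, 4.0 for Myod1, 3.38 for Myf6 and 2.85 for Id2.

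Gdf5 (chromosome 2, 155766760 to 155771100) was among the most strongly raised signalling genes. It stood at 0.325 and 1.14 FPKM in innervated WT and at 44.6 and 52.5 in DKO-labelled libraries, a log2 fold change of 6.24 ± 0.59 (edgeR adjusted p = 0.00184), beside 21.8 and 34.3 FPKM in denervated WT (5.40 ± 0.57). The DKO-labelled values lay above both denervated WT values, but the difference of 0.84 ± 0.45 was not called (edgeR adjusted p = 0.926). Of 26 BMP and GDF pathway genes tested, 5 were called higher and 2 lower, with a median of 0.17, beside 15.2% higher and 16.2% lower of all tested genes. Besides Gdf5, the related ligand Gdf6 rose from 0.198 and 0.202 to 0.663 and 2.30 FPKM (2.95 ± 0.76, edgeR adjusted p = 0.0303). Chrd, which binds and blocks BMPs, rose from 2.85 and 3.07 to 8.23 and 8.13 FPKM (1.64 ± 0.20). The activin antagonists Fst and Fstl3 were the other calls upward (1.5 ± 0.45 and 0.88 ± 0.27), and Acvr2b, a receptor for activins, fell from 2.76 and 2.73 to 0.831 and 0.458 FPKM (-1.92 ± 0.52), as did the ligand Bmp6 (-1.26 ± 0.27). The Acvr2b call was lost without any 1 of the 4 libraries and with library totals (adjusted p up to 0.181), those of Fst and Fstl3 likewise and under other scalings (up to 0.203 and 0.218), and that of Bmp6 without innervated WT replicate 1 or 2 or DKO-labelled replicate 2 (up to 0.124). The Gdf6 call was lost without innervated WT replicate 1 or 2 or DKO-labelled replicate 2 and with limma on FPKM (up to 0.156).

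The synaptic apparatus did not move as a block, and its counts of calls lay near the shares over all tested genes, 15.2% higher and 16.2% lower. Of 24 junction assembly genes tested, 3 were called higher (Musk, Lrp4 and Dtna) and 5 lower (Colq, Ache, Tnik, Etv4 and Ufsp1), with a median of 0.23 that became -0.23 without DKO-labelled replicate 1. Musk, the receptor kinase that organises the postsynaptic membrane, stood at 8.54 and 8.06 FPKM in innervated WT and at 42.9 and 52.6 in DKO-labelled libraries (2.59 ± 0.18, edgeR adjusted p = 0.00106). Lrp4, the agrin receptor that activates Musk, rose from 4.62 and 3.90 to 9.28 and 9.04 FPKM (1.24 ± 0.16, lost without innervated WT replicate 2 at an adjusted p of 0.0511). Rapsn, which clusters the receptor, stood at 18.2 and 21.6 against 23.3 and 24.6 FPKM (0.40 ± 0.15, edgeR adjusted p = 0.0911). The enzyme that clears acetylcholine and its anchor were lower. Colq, the collagen tail that anchors acetylcholinesterase in the cleft, stood at 9.48 and 10.5 FPKM in innervated WT and at 1.12 and 1.08 in DKO-labelled libraries (-3.05 ± 0.21, edgeR adjusted p = 0.000968). Denervated WT lay between, at 4.06 and 3.24 FPKM (-1.36 ± 0.19), and the difference between the denervated groups was -1.69 ± 0.20 with an edgeR adjusted p of 0.0905. Ache, the enzyme itself, stood at 8.40 and 10.9 against 2.03 and 1.09 FPKM (-2.47 ± 0.39), and at 2.03 and 1.22 in denervated WT. By edgeR the Ache call was lost at an adjusted p of 0.0588 where replicate 2 of innervated WT was left out. Dtna, a dystrophin-associated protein (0.79 ± 0.23), and the lower genes Tnik, Etv4 and Ufsp1 (-1.89 ± 0.44, -1.44 ± 0.35 and -1.43 ± 0.28) lost their calls when single libraries were left out (up to 0.216, 0.115, 0.161 and 0.104), Dtna also with the authors' factor and Etv4 with quantile-normalized FPKM. The whole list then gave 1 or 2 genes higher and 1 to 4 lower without any 1 of the 4 libraries.

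**Figure D2:**
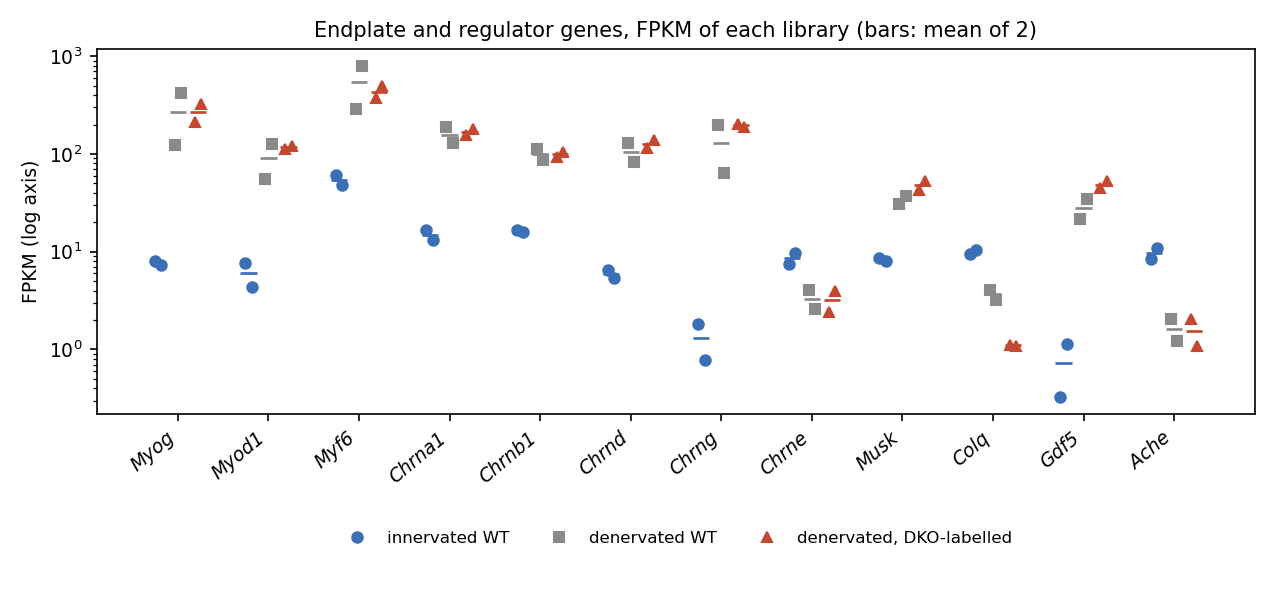
FPKM of each library (log axis) for 12 endplate and regulator genes, in innervated WT (blue circles), denervated WT (grey squares) and denervated DKO-labelled soleus (red triangles), with bars at the mean of 2 libraries. Both denervated groups lie together above or below innervated WT, and for Colq the DKO-labelled libraries, at 1.12 and 1.08, lie below the denervated WT ones.

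Of 8 class II deacetylase and Dach genes tested, 5 were called lower and 1 higher, with a median of -1.4; the lower ones include the targeted Dach2 and Hdac9 themselves, beside Dach1, Hdac7 and Hdac5. Dach1, the relative of Dach2, stood at 1.33 and 1.51 FPKM in innervated WT and at 0.483 and 0.461 in DKO-labelled libraries (-1.62 ± 0.31). Hdac7 went from 11.4 and 10.9 to 4.56 and 2.73 FPKM (-1.44 ± 0.30), and Hdac5 fell as well (-1.35 ± 0.39), whereas Hdac4 rose from 6.37 and 7.39 to 11 and 13.2 FPKM (0.96 ± 0.25). The Hdac9 value of -3.36 ± 0.89 (edgeR adjusted p = 0.0322) and the calls of Dach1 and Hdac4 were lost without any 1 of the 4 libraries (adjusted p up to 0.165, 0.0886 and 0.173), that of Hdac4 also with limma on FPKM. That of Hdac7 was lost without innervated WT replicate 1 or 2 or DKO-labelled replicate 2 (up to 0.0915), and that of Hdac5 without any 1 of the 4 and with library totals or upper quartile scaling (up to 0.208). Without either innervated library or DKO-labelled replicate 2, 1 of the 8 genes was called lower, and without DKO-labelled replicate 1, 2 were. In denervated WT the values were -1.09 for Dach1, -1.42 for Hdac7, -1.32 for Hdac5 and 0.83 for Hdac4.

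Excitability genes moved in both directions. Of 30 ion channel and calcium handling genes tested, 7 were called higher and 16 lower, with a median of -0.77; without innervated WT replicate 1 or 2, 4 were higher and 5 lower, without DKO-labelled replicate 1, 6 and 8, and without DKO-labelled replicate 2, 5 and 6. The adult muscle channel Scn4a went from 49.8 and 56.4 to 34.9 and 27.5 FPKM (-0.64 ± 0.17, edgeR adjusted p = 0.0338). Denervated WT stood at 34.5 and 33.6 FPKM for Scn4a. Kcnn3, a calcium-activated potassium channel, rose from 1.8 and 1.88 to 30.7 and 38.5 FPKM (4.28 ± 0.21). Kcng4, a modifier subunit of voltage-gated potassium channels, had the lowest log2 fold change of the genes named here, at 5.82 and 8.84 against 0.0325 and 0.0228 FPKM (-7.87 ± 0.48). Kcna7, a voltage-gated potassium channel, fell from 52.1 and 68.2 to 3.81 and 2.15 FPKM (-4.25 ± 0.54). Clcn1, the chloride channel that stabilises the resting membrane, fell by 2.54 on the log2 scale. The Scn4a call was lost without any 1 of the 4 libraries, with library totals and with no filter (adjusted p up to 0.203), and that of Clcn1 without innervated WT replicate 1 or 2 or DKO-labelled replicate 2 (up to 0.0834). In WT denervation the values were 3.84 for Kcnn3, -6.81 for Kcng4 and -3.79 for Kcna7.

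Of 20 genes tested from a list of denervation stress and growth arrest, 10 were called higher and 2 lower, with a median of 1.0. The other 8 were not called, and of all tested genes 15.2% were higher and 16.2% lower. The list was drawn up for denervation with earlier results of these data known, so its count is no separate result. Ankrd1, a titin-associated stress protein, stood at 19.8 and 11.5 FPKM in innervated WT and at 853 and 1259 in DKO-labelled libraries (6.09 ± 0.64, edgeR adjusted p = 0.00243). Runx1, a transcription factor known to rise in denervated muscle, went from 1.22 and 0.699 to 42.5 and 57.9 FPKM (5.80 ± 0.42). Gadd45a, a growth-arrest gene, went from 15.9 and 14.5 to 489 and 862 FPKM (5.53 ± 0.58). Its relative Gadd45b fell (-1.46 ± 0.20). Metallothionein Mt2 rose from 21.3 and 18.6 to 759 and 374 FPKM (4.93 ± 0.52). Denervated WT gave 6.21 for Ankrd1, 5.66 for Runx1, 5.65 for Gadd45a and 5.12 for Mt2. With innervated WT replicate 1 or 2 left out, 6 of the 20 were called higher.

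Genes that follow nerve activity were lower. Of 18 immediate early genes tested, 12 were called lower and 0 higher by edgeR, with a median of -2.0; without DKO-labelled replicate 2, 5 were called lower, without replicate 1, 7, and without innervated WT replicate 1 or 2, 9 and 8. Nr4a1, an orphan nuclear receptor induced by activity, stood at 59.7 and 106 FPKM in innervated WT and at 3.62 and 3.42 in DKO-labelled libraries (-4.41 ± 0.52). Nr4a2, its relative, fell from 4.23 and 3.82 to 0.260 and 0.157 FPKM (-4.23 ± 0.51), and Egr3, a zinc finger factor, from 3.55 and 3.96 to 0.179 and 0.223 FPKM (-4.04 ± 0.36). Of 16 trophic and guidance factors, 4 were called higher and 6 lower (3 lower without any 1 of 3 libraries, all but DKO-labelled replicate 1). Ostn, the secreted muscle factor osteocrin, fell from 38.1 and 43.7 to 3.99 and 4.16 FPKM (-3.38 ± 0.24), and Fndc5, the irisin precursor, from 77.9 and 99.7 to 9.48 and 9.96 FPKM (-3.12 ± 0.18). The raised ones included the axon guidance ligands Sema3f, from 5.01 and 6.80 to 49.9 and 57.7 FPKM (3.34 ± 0.22), and Sema3b (2.67 ± 0.19). In WT denervation the log2 fold changes were -4.28 for Nr4a1, -4.20 for Nr4a2, -3.98 for Egr3, -3.56 for Ostn and 2.52 for Sema3f.

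Contractile genes of both fibre types were lower. Of 14 slow fibre genes, 9 were called lower and 0 higher (median -1.58), and of 17 fast fibre genes 12 were called lower and 1 higher (median -1.35). Myl2, the slow regulatory light chain, stood at 4447 and 6196 FPKM in innervated WT and at 730 and 806 in DKO-labelled libraries (-2.72 ± 0.23, edgeR adjusted p = 0.00151). Mb fell from 11008 and 12666 to 3422 and 3865 FPKM, 3.04-fold (-1.60 ± 0.20), and Tnnc2, the fast troponin C, from 8792 and 9655 to 3077 and 2740 FPKM (-1.58 ± 0.20). Actn3, an actinin of fast fibres, was the exception and rose from 28.4 and 116 to 467 and 469 FPKM (2.83 ± 0.60), a call lost without either DKO-labelled library (adjusted p up to 0.0699). Myh7 went from 1176 and 1700 to 210 and 115 FPKM (-3.02 ± 0.68, edgeR adjusted p = 0.0194), a call lost without any 1 of the 4 libraries (up to 0.123). Without innervated WT replicate 2, 4 slow and 5 fast genes were called lower, and without innervated WT replicate 1 or DKO-labelled replicate 2, 7 slow and 6 or 7 fast ones were. WT denervation gave -2.49 for Myl2, -1.13 for Mb, -1.19 for Tnnc2, -2.32 for Myh7 and 2.15 for Actn3. The 10 most abundant called genes were all lower, and all encode contractile proteins, creatine kinase (Ckm), myoglobin or the mitochondrial carrier Slc25a4, which fell from 4627 and 5489 to 1027 and 1136 FPKM (-2.11 ± 0.21). The calls of Ckm, Tnnt3, Tnni2, Tcap and Mylpf among them were lost when FPKM were quantile-normalized (Mylpf then at 0.23, of the other sign) and without innervated WT replicate 2. Those of Tcap and Mylpf were also lost without any 1 of the other 3 libraries, that of Ckm without innervated WT replicate 1 or DKO-labelled replicate 2, that of Tnnt3 without innervated WT replicate 1, and that of Mylpf with library totals or upper quartile scaling.

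RNA of genes for respiration and fatty acid use was lower nearly throughout the lists. Of 75 oxidative phosphorylation genes tested, 72 were called lower and 0 higher, with a median of -1.07, and the FPKM of all 75 were lower in both DKO-labelled libraries than in both innervated ones, as for 40.9% of all tested genes. Sdhb, the iron-sulfur subunit of complex II, fell from 623 and 756 to 191 and 221 FPKM (-1.64 ± 0.19), and Cox7a1, a muscle subunit of cytochrome oxidase, from 1686 and 2214 to 498 and 544 FPKM (-1.81 ± 0.19). Of 25 genes of the citric acid cycle (TCA), 23 were called lower and 0 higher, with a median of -1.21. Idh2, the mitochondrial NADP-linked isocitrate dehydrogenase, stood at 846 and 902 FPKM in innervated WT and at 66.9 and 59.0 in DKO-labelled libraries, a 12.7-fold fall (-3.67 ± 0.20, edgeR adjusted p = 0.000854). Mdh1, cytosolic malate dehydrogenase, fell from 719 and 801 to 87.0 and 84.8 FPKM (-3.17 ± 0.17). Of 36 fatty acid genes, 30 were called lower and 1 higher (median -1.53). Lpl, the lipase that frees fatty acids from lipoproteins, fell from 650 and 564 to 38.7 and 33.9 FPKM (-4.10 ± 0.27), and Fabp3, the muscle fatty acid binding protein, from 2113 and 2347 to 168 and 178 FPKM (-3.61 ± 0.29). The exception was Ucp2, a mitochondrial carrier singled out after its values were seen, at 5.63 and 4.77 against 12.6 and 7.33 FPKM (1.05 ± 0.32, edgeR adjusted p = 0.0459); its call was lost in several alternatives (up to 0.228). In denervated WT, Idh2 stood at 87.9 and 109 FPKM, Lpl at 80.5 and 53.4 and Fabp3 at 196 and 335, all above the DKO-labelled values, and none of the 3 was called between the denervated groups. Without innervated WT replicate 2 the calls fell to 16 of 75, 13 of 25 and 10 of 36; without replicate 1 they were 41, 15 and 14, without DKO-labelled replicate 1 43, 18 and 26, and without DKO-labelled replicate 2 49, 18 and 17.

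Glucose use followed. Of 27 genes of glucose uptake, glycolysis and glycogen, 17 were called lower and 2 higher, with a median of -0.98; without innervated WT replicate 1 or 2, 8 and 5 were called lower, and without DKO-labelled replicate 2, 6. Ldhb, the lactate dehydrogenase of oxidative muscle, fell from 770 and 902 to 90.1 and 103 FPKM (-3.01 ± 0.18), and Slc2a4, the insulin-responsive glucose transporter, from 235 and 277 to 31.7 and 19.3 FPKM (-3.22 ± 0.60). The exceptions, named after their values were seen, were Pkm2, listed for pyruvate kinase, from 489 and 583 to 972 and 866 FPKM (0.91 ± 0.18), and the glycogen branching enzyme Gbe1, from 74.1 and 80.9 to 138 and 168 FPKM (0.96 ± 0.19). Gapdh, often used as a reference gene, was itself lower, at 726 and 695 against 416 and 335 FPKM (-0.80 ± 0.17, edgeR adjusted p = 0.0165). The calls of Pkm2, Gbe1, Gapdh and Slc2a4 were each lost without innervated WT replicate 1 or 2 or DKO-labelled replicate 2 (adjusted p up to 0.128, 0.113, 0.117 and 0.0826), that of Pkm2 also without DKO-labelled replicate 1, and that of Gapdh with library totals or quantile-normalized FPKM. In WT denervation the values were -2.59 for Ldhb, -2.69 for Slc2a4, 0.41 for Pkm2, 0.56 for Gbe1 and -0.66 for Gapdh.

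**Figure D3:**
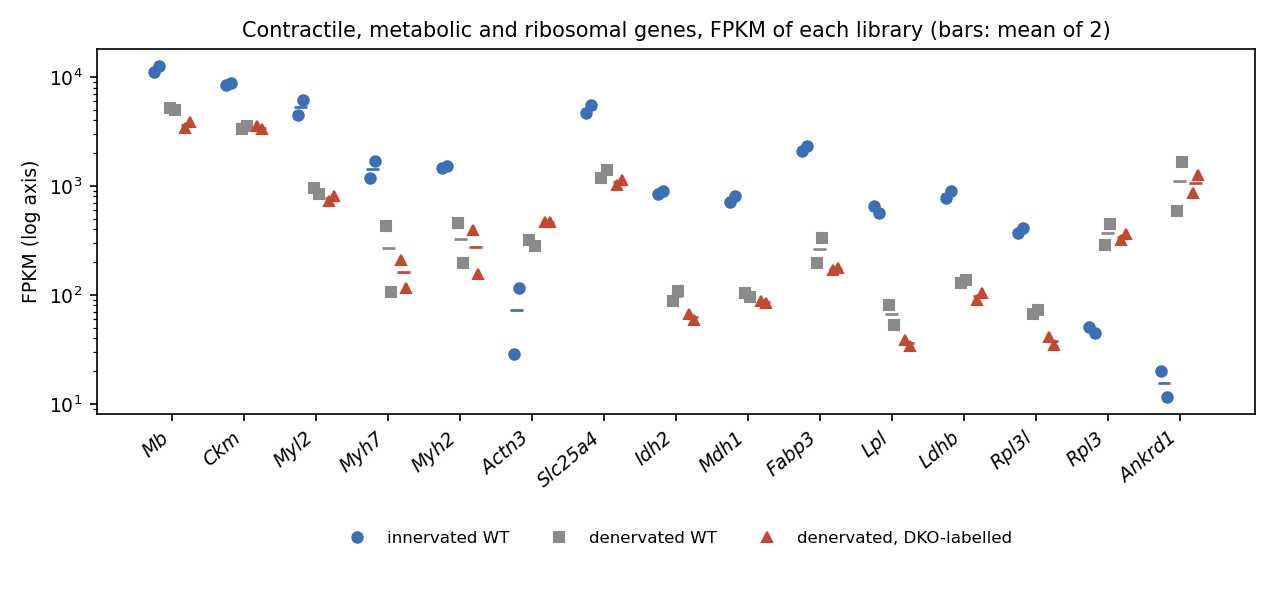
FPKM of each library (log axis) for 15 contractile, metabolic, ribosomal and stress genes, in innervated WT (blue circles), denervated WT (grey squares) and denervated DKO-labelled soleus (red triangles), with bars at the mean of 2 libraries. Actn3, Rpl3 and Ankrd1 lie higher in the denervated groups and the other 12 lower, with Idh2 at 66.9 and 59.0 FPKM in the DKO-labelled libraries.

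Ribosomal genes were mostly higher. Of 74 cytosolic ribosomal protein genes tested, 65 were called higher and 2 lower, with a median of 0.96. Rpl3 stood at 50.2 and 44.6 FPKM in innervated WT and at 318 and 360 in DKO-labelled libraries (2.92 ± 0.25), and its muscle-specific paralogue Rpl3l went the other way, from 370 and 408 to 40.7 and 34.9 FPKM (-3.24 ± 0.17, edgeR adjusted p = 0.000854). The second gene called lower was Rpl35, listed at 363 and 393 against 2.85 and 3.76 FPKM (-6.77 ± 0.29), beside 3.30 and 4.95 in denervated WT. Ribosomal protein genes have near-identical copies among which the authors' counting may split fragments, so single values are uncertain. Of 27 genes of Myc and ribosome biogenesis, 16 were called higher and 0 lower (median 1.1). Myc, the growth regulator, rose from 1.16 and 1.19 to 7.01 and 7.87 FPKM (2.77 ± 0.45), and Bop1, a nucleolar ribosome assembly factor, from 10.4 and 12.1 to 35.4 and 38.0 FPKM (1.87 ± 0.25). The Myc call was lost without innervated WT replicate 1 or 2 (adjusted p up to 0.0695). Without innervated WT replicate 1, 7 ribosomal and 1 biogenesis genes were called higher, without replicate 2 4 and 1, and without DKO-labelled replicate 2 26 and 4. The medians kept their sign in all 18 alternatives.

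Of 30 proteasome subunits tested, 19 were called higher and 0 lower, with a median of 0.74. Psmd14, a deubiquitinating subunit, rose from 36.0 and 39.5 to 83.4 and 94.3 FPKM (1.20 ± 0.22, edgeR adjusted p = 0.00978), a call lost without innervated WT replicate 1 or 2 or DKO-labelled replicate 2. No subunit was called without innervated WT replicate 1 or 2, 9 were without DKO-labelled replicate 1 and 2 without DKO-labelled replicate 2; all 30 had higher FPKM in both DKO-labelled libraries, as did 36.4% of all tested genes. The atrophy ligases themselves were less uniform. Of 24 atrophy and FoxO genes, 2 were called higher (Eif4ebp1 and Fbxo40) and 5 lower (Asb2, Klf15, Wwp1, Foxo4 and Ubr2), beside 15.2% and 16.2% of all tested genes. Their median was -0.23 and became 0.09 with library totals. Trim63, the ligase MuRF1, stood at 71.3 and 91.2 FPKM in innervated WT and at 112 and 130 in DKO-labelled libraries (0.67 ± 0.22, edgeR adjusted p = 0.0628), beside 121 and 167 in denervated WT, where it was called (0.90 ± 0.22, edgeR adjusted p = 0.0282). In DKO-labelled muscle Trim63 was called higher in 9 of the 18 alternatives, among them DESeq2, library totals, no filter, the fit of the 4 libraries compared and the replicate block. The difference between the denervated groups was -0.24 ± 0.22 (edgeR adjusted p = 0.972). The calls of Eif4ebp1, Fbxo40, Foxo4 and Ubr2 were lost when single libraries were left out (adjusted p up to 0.0743, 0.255, 0.0947 and 0.199), that of Fbxo40 also with the authors' factor and limma on FPKM, and that of Ubr2 with library totals or no filter. With innervated WT replicate 1 or 2 left out, 0 genes of the list were called higher and 3 lower. Fbxo32, the ligase atrogin-1, stood at 74.1 and 91.4 against 64.2 and 49.0 FPKM (-0.51 ± 0.26, edgeR adjusted p = 0.17). Asb2, a muscle ubiquitin ligase subunit, fell from 137 and 186 to 25.5 and 14.9 FPKM (-2.85 ± 0.30), and Klf15, a metabolic transcription factor, from 20.9 and 34.6 to 5.20 and 5.12 FPKM (-2.28 ± 0.25). Of 24 autophagy and lysosome genes, 5 were called higher and 3 lower (median 0.32), near the shares over all tested genes, and fewer without innervated WT replicate 2. Among those higher was the lysosomal protease Ctsd, from 297 and 308 to 705 and 749 FPKM (1.39 ± 0.16).

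Genes nearly silent in innervated muscle made up much of the top of the ranking. The filter on low values, a mean FPKM of at least 0.5 over the 6 libraries, admits such genes through the denervated libraries alone. They could be called higher but hardly lower, and a ranking by fold change favours low innervated values, so their place at the top is no separate result. Krt8, a simple keratin, stood at 0.0956 and 0.0725 FPKM in innervated WT and at 17.5 and 48.7 in DKO-labelled libraries (8.71 ± 0.72), and its partner Krt18 at 0.582 and 0.227 against 17.8 and 71.2 FPKM (6.84 ± 0.85). Nrcam, a neuronal adhesion molecule, rose from 0.210 and 0.171 to 13.7 and 17.1 FPKM (6.34 ± 0.71). Slc10a4, a transporter known from cholinergic vesicles, went from 0.0189 and 0.0734 to 8.21 and 8.56 FPKM. Dppa5a had 0 rounded fragments in the innervated libraries and 151 in the DKO-labelled ones, and was at least 36.7-fold higher, taking 3 fragments for the innervated pair together as the floor. Hamp2 had 0 against 69 fragments and was at least 16.8-fold higher on that basis. Serpina3m, a protease inhibitor with close copies, went from 0.122 and 0.0368 to 10.4 and 7.25 FPKM (6.76 ± 0.48), beside 1.40 and 1.83 in denervated WT. Denervated WT had 65 fragments of Dppa5a and 64 of Hamp2. The acute-phase gene Orm2 had 2 fragments in innervated WT, 2187 in DKO-labelled and 2628 in denervated WT libraries. Klk1b22, of the kallikrein family, had 1, 220 and 1, and Hal, histidine ammonia-lyase, 3, 417 and 12 fragments in that order, so these 2 were near silent in denervated WT as well. For Klk1b22 and Hal the DKO-labelled and WT denervated groups were not called apart by edgeR (adjusted p = 0.213 and 0.295). The calls of Slc10a4, Dppa5a, Hamp2, Orm2, Klk1b22 and Hal were lost without innervated WT replicate 1 or 2 (adjusted p up to 0.059, 0.0543, 0.0703, 0.0628, 0.095 and 0.093), that of Hamp2 also without DKO-labelled replicate 2, and that of Hal with limma on log2(FPKM + 1). Among developmental muscle genes, 6 of 18 were called higher, 5 lower and 7 not called (median 0.58), beside 15.2% higher and 16.2% lower of all tested genes. The fetal adhesion molecule Ncam1 rose from 4.74 and 2.98 to 31.6 and 24.1 FPKM (2.89 ± 0.41), while embryonic myosin Myh3 stood at 13.3 and 5.81 against 15.0 and 7.20 FPKM and was not called (0.32 ± 0.92). By edgeR the Ncam1 call was lost at an adjusted p of 0.0536 where replicate 2 of innervated WT was left out.

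At the other end stood the genes with the lowest fold changes. Dhrs7c, an enzyme of the sarcoplasmic reticulum, fell from 73.3 and 80.7 to 1.78 and 1.52 FPKM, 43.4-fold (-5.44 ± 0.20, edgeR adjusted p = 0.000423), and stood at 3.10 and 2.59 in denervated WT. Aqp4, the water channel of fast fibres, fell from 4.56 and 3.39 to 0.00406 and 0.0771 FPKM (-6.67 ± 0.86), and Lrrc52, an auxiliary subunit of potassium channels, from 10.4 and 13.5 to 0.201 and 0.169 FPKM (-5.88 ± 0.34). Tmem233 stood at 17.0 and 17.5 against 0.283 and 0 FPKM. The cadherin Cdh22 stood at 7.96 and 12.5 against 0.334 and 0.0294 FPKM, and at 1.70 and 0.773 in denervated WT; by edgeR its call was lost at an adjusted p of 0.0544 where replicate 2 of innervated WT was left out. Slc15a5 and Atp1b4 were the other 2 of this set with over 3 fragments in each group, at -5.79 ± 0.54 and -5.41 ± 0.59. Spinkl had 99 fragments in innervated WT against 2 in DKO-labelled libraries, and Rims4 had 59 against 2.

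Markers of the other cells of a muscle moved too. In whole muscle, fewer cells of a type and less RNA per cell cannot be told apart. Of 13 myelinating Schwann cell markers tested, 8 were called lower and 0 higher, with a median of -1.03, and their summed level was 110 and 111 FPKM in innervated WT against 46.9 and 44.7 in DKO-labelled libraries; without an innervated library 3 were called lower, and without a DKO-labelled one 4. Prx, periaxin of myelinating Schwann cells, fell from 2.72 and 2.77 to 0.840 and 0.730 FPKM (-1.64 ± 0.20). Of 10 markers of repair Schwann cells, the state that Schwann cells take after nerve injury, 5 (Shh, Olig1, Artn, Bdnf and Sox2) were too low to be tested, and the 5 that passed the filter on low values, which can pass through the denervated libraries alone, were called higher. Of these, Ncam1 and Tnfrsf12a are expressed by muscle as well. Ngfr, the neurotrophin receptor, rose from 0.642 and 0.596 to 3.43 and 2.99 FPKM (2.52 ± 0.21), and Gdnf, the glial trophic factor, from 0.176 and 0.273 to 0.740 and 1.52 FPKM (2.39 ± 0.53). The Tnfrsf12a call was lost without any 1 of the 4 libraries (adjusted p up to 0.178). The Gdnf call was lost with limma on FPKM and without innervated WT replicate 1 or 2 or DKO-labelled replicate 2 (adjusted p up to 0.132).

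Vascular and adipose markers were lower. Of 14 endothelial markers, 12 were called lower and 0 higher (median -1.17; summed level 219 and 263 against 122 and 80.4 FPKM), for example Kdr, the VEGF receptor, from 10.9 and 12 to 3.37 and 2.28 FPKM (-1.96 ± 0.22). Of 11 smooth muscle and pericyte markers 7 were lower and 0 higher (summed 251 and 265 against 146 and 105 FPKM). Of 11 adipocyte markers 8 were lower and 0 higher (summed 1113 and 1101 against 421 and 283 FPKM), and of 12 fibro-adipogenic progenitor markers 4 were lower (8 in a fit of the 4 libraries compared) and 1, the chemokine Cxcl14, higher (2.34 ± 0.26). Without innervated WT replicate 2 the lower counts were 1, 1, 0 and 0, and without DKO-labelled replicate 2 they were 2, 1, 2 and 1. Without innervated WT replicate 1 they were 4, 1, 1 and 1, and without DKO-labelled replicate 1 they were 10, 7, 6 and 1.

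Of 16 macrophage markers, 4 were called higher, 0 lower and 12 not called, beside 15.2% higher and 16.2% lower of all tested genes. Their median was 0.49 and changed sign without DKO-labelled replicate 1. Their summed level was 341 and 224 FPKM in innervated WT against 482 and 348 in DKO-labelled libraries. Cd68 rose from 13.1 and 8.38 to 52.8 and 46.4 FPKM (2.32 ± 0.29) and Spp1, osteopontin, from 5.35 and 5.60 to 44.8 and 31.2 FPKM (2.83 ± 0.33). Of 9 neutrophil and acute-phase markers tested 5 were called higher (1 without either innervated library, 3 without DKO-labelled replicate 1): Orm2, Orm1, Lcn2, Saa1 and S100a8, the last from 2.16 and 5.72 to 86.1 and 119 FPKM (4.74 ± 0.61). The neutrophil genes S100a9 and Csf3r were not called (0.07 ± 0.79 and -0.46 ± 0.64), both turning in sign when single libraries were left out, and Ngp, Mpo, Elane, Cxcr2 and Saa2 were too low to be tested; 2 members of the list were at 0 in all 4 libraries. The summed level of that list was 36.4 and 37.3 FPKM in innervated WT and 364 and 220 in DKO-labelled libraries, against 89.0 and 404 in denervated WT. No lymphocyte marker passed the filter, and none exceeded 1.34 FPKM in the 4 libraries. The part of these cell markers in the changes of the gene groups above was not tested.

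The counts of the remaining groups are to be read beside the shares over all tested genes, 15.2% called higher and 16.2% lower. Those of the integrated stress response and the circadian clock lay near these shares, and the polyamine list is small. Of 20 interferon response genes, 11 were called lower and 0 higher (median -1.27), for example Igtp, an interferon-induced GTPase, from 6.84 and 6.23 to 1.87 and 1.53 FPKM (-1.87 ± 0.21). Of 23 cell cycle genes 16 were tested, and 5 of these were called higher and 0 lower (median 1.54). The mitotic and proliferation genes Mki67, Ccnb1, Cdk1, Cdc20, Aurkb, Plk1 and Bub1 were too low to be tested. Rrm2, a subunit of ribonucleotide reductase, rose most, from 1.36 and 0.920 to 9.72 and 18.7 FPKM (3.62 ± 0.47). In denervated WT Rrm2 stood at 38.1 and 70.1, above both DKO-labelled values, and was not called between those groups (edgeR adjusted p = 0.341). Of 10 polyamine genes 2 were higher and 0 lower, among them Atp13a3, a polyamine transporter, from 8.47 and 7.99 to 107 and 170 FPKM (3.99 ± 0.33). The integrated stress response gave 3 higher and 2 lower of 16 (median -0.4; 0 higher without either innervated library or DKO-labelled replicate 2), with Ddit3, a stress-induced transcription factor, lower (-2.14 ± 0.19). The circadian clock gave 2 and 2 of 17, with Nr1d1, a clock repressor, lower (-1.82 ± 0.22). Extracellular matrix gave 1 and 1 of 25 (median -1.2; 6 lower with DESeq2, 8 with no filter, 12 in a fit of the 4 libraries compared or without either denervated WT library and 14 with the replicate block), satellite cells, the muscle stem cells, 1 and 1 of 13 (median -0.22, above 0 with library totals and without innervated WT replicate 1), and tendon and cartilage 1 and 0 of 10. Of the satellite cell markers Cdh15, M-cadherin, was the one raised, from 7.0 and 7.84 to 17.8 and 21.3 FPKM (1.58 ± 0.19). Chodl was the one lowered (log2 fold change -0.92, edgeR adjusted p = 0.0295), a call lost with library totals and without any 1 of the 4 libraries. The other 11 satellite cell markers tested were not called. Without innervated WT replicate 1 or 2, 1 and 4 interferon genes were called lower and 1 cell cycle gene higher in each; without either DKO-labelled library 1 interferon gene was called lower. In a fit of the 4 libraries compared, 17 interferon genes were called lower and 10 cell cycle genes higher.

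**Figure D4:**
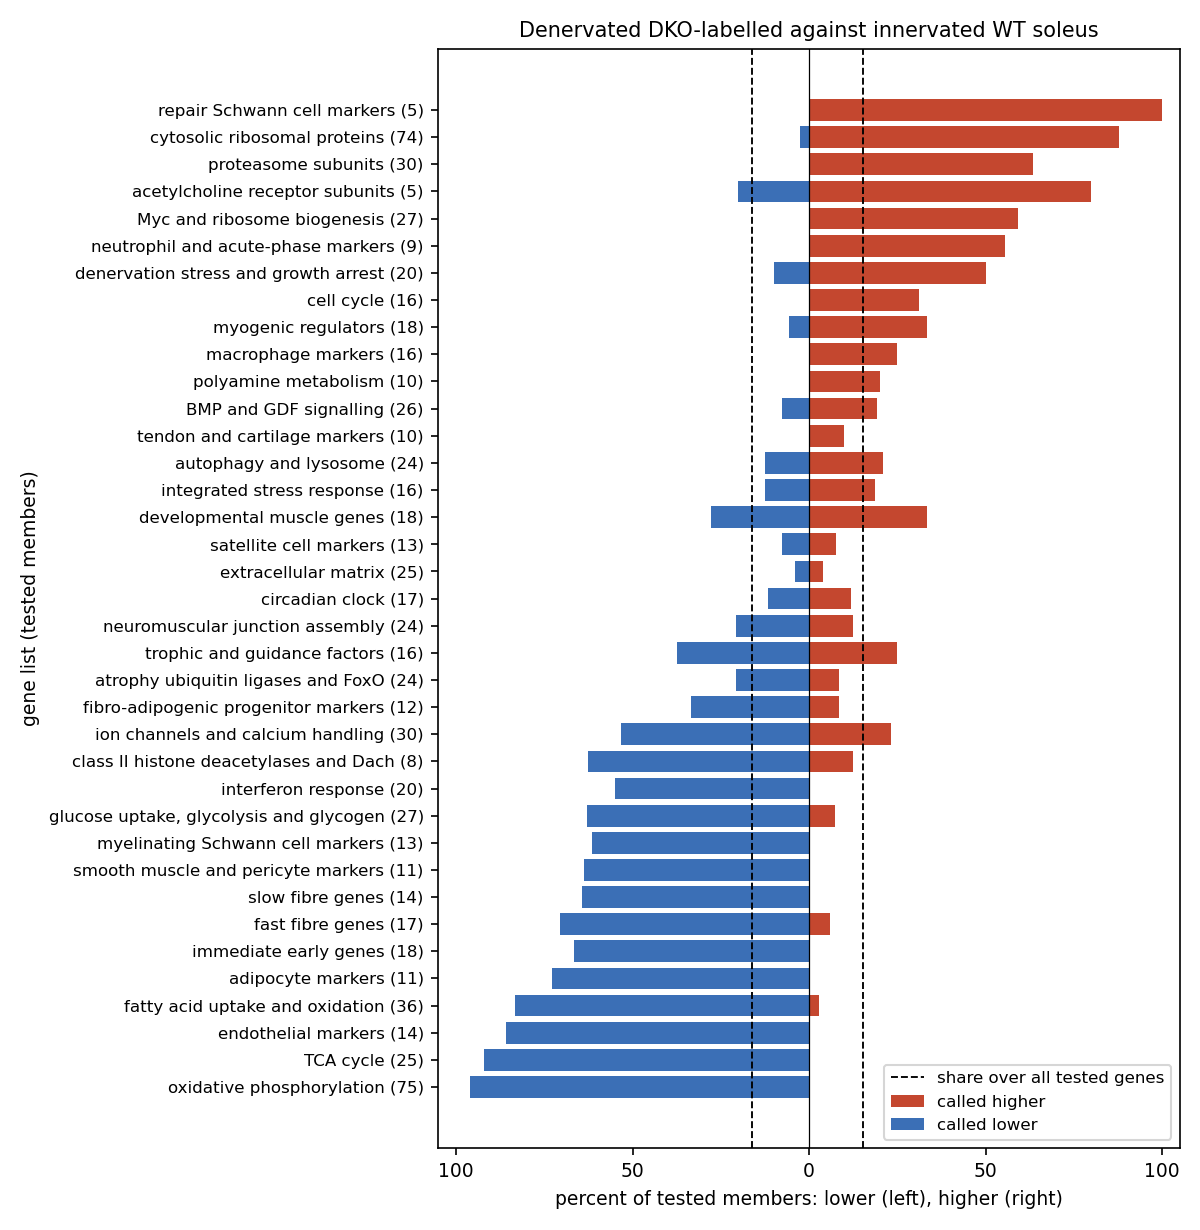
Percent of the tested members of each gene list called higher (red, to the right) or lower (blue, to the left) in denervated DKO-labelled against innervated WT soleus, with the number tested in parentheses. Dashed lines mark the shares over all tested genes, 15.2% higher and 16.2% lower; the ribosomal list (65 of 74 higher) and the oxidative phosphorylation list (72 of 75 lower) lie far from them on either side.

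Few genes were called apart between the denervated groups by edgeR, but their number depended on the method (80 higher and 101 lower with DESeq2). The direct test of the denervated groups called 5 genes (0.0408%), 3 (0.0245%) higher and 2 (0.0163%) lower in DKO-labelled libraries. None of the 5 was called without either innervated library, without either DKO-labelled library or in a fit of the 4 denervated libraries alone, where the adjusted p lay between 0.0505 and 0.325. Gdpd3, a phospholipase of lysophospholipids (chromosome 7, 133909927 to 133919159), stood at 0.809 and 0.954 FPKM with the nerve intact (WT), 19.8 and 23.8 in DKO-labelled and 0.570 and 0.364 in denervated WT libraries. Dusp4, a MAP kinase phosphatase (chromosome 8, 35870663 to 35882948), stood at 1.35 and 2.11, then 13.1 and 17.7, then 0.478 and 0.534 FPKM. Both were high in the DKO-labelled libraries alone, and Dusp4 was called higher there (3.26 ± 0.29) and lower in WT denervation (-1.71 ± 0.30). The joined entry Serpina3f,Serpina3g, protease inhibitors with close copies (chromosome 12, 105452753 to 105480144), stood at 0.0916 and 0.102, then 3.24 and 1.93, then 0.0692 and 0.0945 FPKM. Rab6b, a small GTPase of Golgi traffic (chromosome 9, 103014403 to 103087600), stood at 2.89 and 2.89 FPKM in innervated WT and 2.43 and 2.12 in denervated WT, but at 0.203 and 0.130 in DKO-labelled libraries. 1700066B19Rik stood at 3.49 and 4.54, then 0.417 and 0.355, then 2.76 and 2.77 FPKM, the last pair being denervated WT. These last 2 genes were low in the DKO-labelled libraries alone.

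Against innervated WT, the log2 fold change in DKO-labelled muscle was 4.69 ± 0.31 for Gdpd3, 4.86 ± 0.45 for Serpina3f,Serpina3g, -4.07 ± 0.28 for Rab6b and -3.27 ± 0.26 for 1700066B19Rik. In WT denervation the same genes were not called, at -0.82 ± 0.32, -0.12 ± 0.52, -0.30 ± 0.24 and -0.46 ± 0.23. Near them lay H2-Q2, a class I histocompatibility gene, at 3.33 and 4.09 FPKM with the nerve intact (WT), 0.115 and 0.0636 in DKO-labelled and 2.12 and 1.56 in denervated WT libraries, and Hfe, a regulator of iron uptake, at 16.0 and 15.8, then 3.19 and 3.84, then 13.1 and 11.9 FPKM. The direct test gave both an edgeR adjusted p of 0.052. The remaining genes called in opposite directions, chosen after their values were seen, were H2-K1, a class I histocompatibility gene (0.82 ± 0.20 in DKO-labelled muscle and -1.17 ± 0.20 in WT), the chemokine Ccl27a (1.83 ± 0.43 and -2.12 ± 0.52), Pisd-ps1 (1.34 ± 0.25 and -1.24 ± 0.25), Pisd-ps2 (1.12 ± 0.26 and -1.05 ± 0.26) and Itga9, an integrin (-0.58 ± 0.18 and 0.67 ± 0.18). All these genes but Itga9 have close copies, so their values are uncertain. Between the denervated groups these 5 had edgeR adjusted p of 0.052 for H2-K1 and Pisd-ps1, 0.105 for Pisd-ps2, 0.106 for Ccl27a and 0.14 for Itga9. Their calls against innervated WT were lost without innervated WT replicate 1 or 2 or DKO-labelled replicate 1, and for H2-K1 and Itga9 also without DKO-labelled replicate 2 (adjusted p up to 0.167 for H2-K1, 0.148 for Ccl27a, 0.09 for Pisd-ps1, 0.134 for Pisd-ps2 and 0.29 for Itga9). Those of H2-K1 and Ccl27a were lost with limma on FPKM too, and that of Itga9 with library totals, DESeq2's size factors or no filter.

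Of the genes called in WT denervation and not in the DKO-labelled comparison, 6 were named by the smallest p between the denervated groups. Cd59a, a complement inhibitor, stood at 29.9 and 30.8 FPKM with the nerve intact (WT), 26.7 and 31.3 in DKO-labelled and 14.9 and 15.1 in denervated WT libraries. Pkd2, a cation channel, stood at 6.06 and 5.56, then 6.70 and 6.82, then 3.22 and 2.61 FPKM. For both, the DKO-labelled values overlapped or exceeded the innervated ones and the denervated WT values lay below. Pdpn, podoplanin, stood at 4.93 and 3.25, then 3.44 and 3.21, then 8.83 and 12.5 FPKM. Ddah1, an enzyme of methylarginine breakdown, stood at 4.55 and 4.64, then 3.45 and 2.97, then 8.67 and 6.43 FPKM, and Mfsd7a at 2.19 and 1.41, then 1.34 and 1.23, then 4.73 and 5.55 FPKM. 1600029D21Rik stood at 0.324 and 0.505, then 0.0335 and 0.0471, then 2.02 and 10.9 FPKM. The last 4 were called higher in WT denervation and had log2 fold changes of -0.27, -0.49, -0.41 and -3.27 in DKO-labelled muscle, in that order. In that comparison 1600029D21Rik was called lower in 6 of the 18 alternatives and Ddah1 in 3. None of the 6 was called between the denervated groups (edgeR adjusted p = 0.14 to 0.207).

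**Figure D5:**
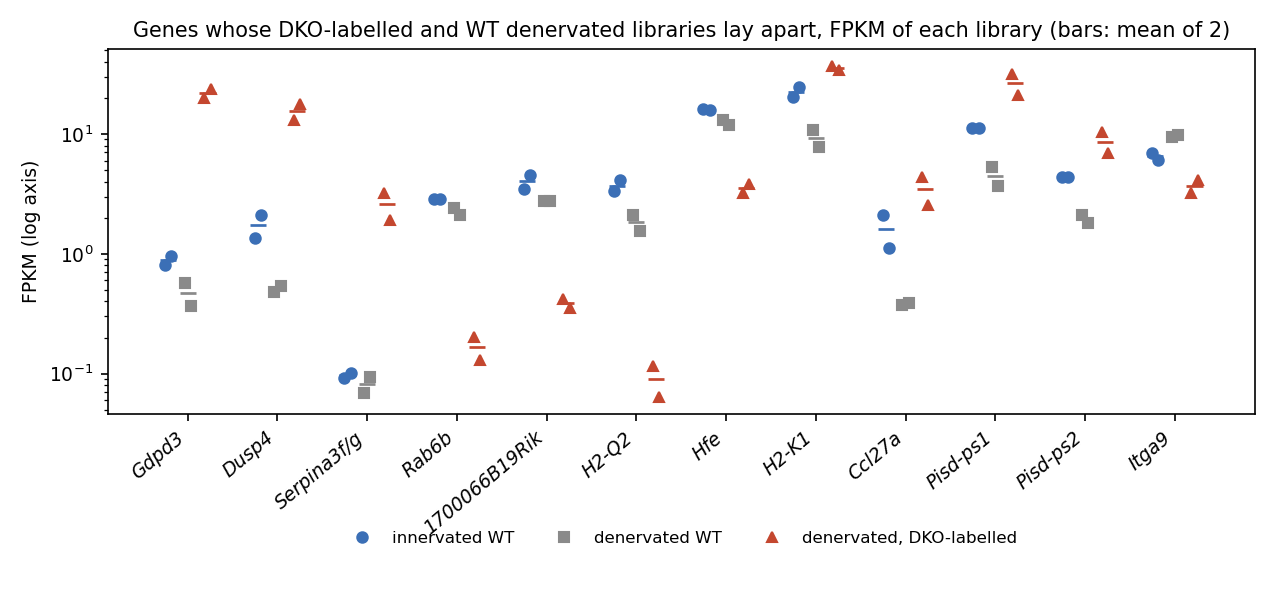
FPKM of each library (log axis) for the 5 genes called between the denervated groups, for H2-Q2 and Hfe, and for the other 5 genes called in opposite directions by the comparisons with innervated WT; symbols as blue circles for innervated WT, grey squares for denervated WT and red triangles for denervated DKO-labelled soleus, bars at the mean of 2 libraries. Gdpd3 reaches 19.8 and 23.8 FPKM in the DKO-labelled libraries and stays under 1 in the other 4.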

How the data were processed

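RNA-seq of mouse soleus was deposited as 1 table per library with FPKM, externally scaled fragments and raw fragments per gene. The FPKM were computed by the authors per the file headers, with a factor per library. The externally scaled fragments, a signal, are the deposited raw fragments times 1 factor per library, 0.6643 to 1.5641 over the 6 libraries. The raw fragments are the authors' estimated counts, 88.4 to 89.0% of them whole, per the file headers without scaling. Per the submitters' processing notes the tools were TopHat2 2.0.3, Cuffdiff 2.0.2, CASAVA 1.8.2, Bowtie2 2.0.0.7 and Trim Galore 0.2.1, and the build was mm9. Tool order, settings, annotation and strand use were not given in the sources used here. Gene positions are on mm9 as deposited.

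Each line stood 3 times in a table and was used once, leaving 21805 entries; entries of the same symbol were summed. Raw fragments were rounded and fitted with edgeR 4.0.16 (R 4.3.3; TMM, quasi-likelihood, all 6 libraries, 3 residual degrees of freedom) for 12247 genes with a mean FPKM of at least 0.5. P-values were two-sided and adjusted by Benjamini-Hochberg over all tested genes, with calls under 0.05. FPKM are given per library; fold changes and their standard errors come from the fit. The test was run on simulated data with known changes. Totals were 25529434 to 46305449 fragments, and depth limits genes of few fragments most. Alternatives changed the scaling, the test (DESeq2 1.42.0, limma 3.58.1 on log2(FPKM + 0.5) or log2(FPKM + 1)), the filter on low values, the libraries fitted and a replicate block, and left out each library.

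Members and gene lists were chosen with earlier results of these data known. Named genes were Dach2, Hdac9, Myog, Gdf5 and Gapdh; the 12 of highest and 12 of lowest change among called genes without overlap; up to 4 called members per list; genes called between the denervated groups; 6 of each kind called in 1 comparison with innervated WT; and the 10 most abundant called genes. Some genes that met this rule are not reported here. Genes outside this rule were chosen after their values were seen: Ccl27a, H2-K1, Itga9, Pisd-ps1, Pisd-ps2, Acta1, Tnnt1, Chrne, Srf, Hdac4, Hdac5, Ucp2, Pkm2, Gbe1, Trim63, Fbxo32, Fbxo40, Foxo4, Ubr2, Lrp4, Dtna, Rapsn, Etv4, Ufsp1, Hes6, Mef2a, Bmp6, Fst, Fstl3, Scn4a, Clcn1, Gadd45b, Myh3, S100a9, Csf3r and Tnfrsf12a.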

Additional observations from a re-analysis of the deposited data

Results flagged for a closer look

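For 5 genes the change against innervated WT differed between the DKO-labelled and the WT denervated muscle by the edgeR test of that difference. The log2 difference, DKO-labelled minus WT denervated, was 5.51 for Gdpd3, 4.97 for Dusp4, 4.98 for the joined entry Serpina3f,Serpina3g, -3.77 for Rab6b and -2.82 for 1700066B19Rik. All 5 lost the call in the fit of the 4 denervated libraries alone (edgeR adjusted p = 0.0505 for Gdpd3 and Dusp4, 0.277 for Serpina3f,Serpina3g, 0.276 for Rab6b and 0.325 for 1700066B19Rik) and without any 1 of the innervated or DKO-labelled libraries. Gdpd3 and Dusp4 kept it in all the other alternatives run. Rab6b also lost it with upper quartile scaling. 1700066B19Rik and Serpina3f,Serpina3g also lost it with upper quartile scaling, library totals, the authors' factor and the replicate block (edgeR adjusted p = 0.056 for both under the block), 1700066B19Rik with a mean FPKM of at least 2, and Serpina3f,Serpina3g with limma on log2(FPKM + 1) and without denervated WT replicate 2.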

How the results depend on the processing

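With library totals in place of TMM, 3729 genes were called higher and 1239 lower in DKO-labelled against innervated WT muscle, 3331 and 1144 in denervated against innervated WT, and 2940 and 929 in both; the median of all genes then moved to 0.33 and 0.27. That count of calls in both was recomputed as a choice made after seeing the data. Leaving out 1 library gave 245 to 2713 higher and 416 to 2812 lower calls in the first comparison, 83 to 2610 and 119 to 2747 in the second, 80 to 1932 and 117 to 2091 in both, and 0 to 45 higher and 0 to 74 lower between the denervated groups. That last comparison, with 3 and 2 calls, gave 5 and 5 with DESeq2's size factors, 80 and 101 with DESeq2, 15 and 18 with limma on log2(FPKM + 0.5) and on log2(FPKM + 1), 17 and 17 with quantile-normalized FPKM, 29 and 31 with no filter, and 0 and 0 in a fit of the 4 libraries compared. Its lower calls numbered 0 with upper quartile scaling and with a mean FPKM of at least 2, and 1 with library totals, the authors' factor and the replicate block. The labels give no replicate numbers. A block of first against second run of sample numbers gave 2244 higher and 2463 lower calls in the first comparison. Deviations from the group means correlated at 0.143 to 0.426 within a run. With 2 libraries per group, the values across runs mirror these by construction, so they are no separate support for a run effect. Signs turned for Cd59a (0.24 with library totals; -0.21 to 0.03 over the left-out libraries), Pdpn (0.05 with totals; -0.54 to 0.07 over the left-out libraries), and Mylpf (0.23) and Tnnt1 (0.17) with quantile-normalized FPKM, and, over the left-out libraries, for Csf3r (-1.93 to 0.24), Myh3 (-0.30 to 1.04) and S100a9 (-0.73 to 1.17). The cause was not tested. With 2 libraries per group and 3 residual degrees of freedom, a missed call does not show that values were alike.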
